A study of Haematococcus lacustris with 7 samples.

Results

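The sequences described here were assembled from cultures of the green microalga *H. pluvialis* (*Haematococcus lacustris* in the labels). The species of origin of single sequences was not checked. The Gene Ontology (GO) annotation of these sequences names the making or breakdown of chlorophyll, heme and other tetrapyrroles. They were chosen by words in the names of the GO terms, such as chlorophyll biosynth, magnesium chelatase, porphyrin and heme biosynth, and no measured value entered the choice. This gave 70 of the 6812 annotated sequences (1.03%). The RNA came from an untreated control culture (N) and from cultures given jasmonic acid (JA1, JA6, JA24) or salicylic acid (SA1, SA6, SA24) at 25 mg/L and harvested 1, 6 or 24 h later, with a single library each and 7 libraries in all. All 7 cultures were aliquots of one starting culture of a single strain. The table used here describes the assembly of these libraries together, and 0 of its 4 columns hold a value for one library. Levels of the sequences, their change with JA or SA and the depth of each library are therefore not analysed here. What follows is which steps of the pathway the assembly covers, by how many sequences, and with what other terms.

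Tetrapyrroles are ring pigments and cofactors that plants and algae build in the plastid from glutamate. Glutamate bound to its transfer RNA is converted to aminolevulinic acid, molecules of which are joined and oxidised in a common series of steps to protoporphyrin IX. At that point the route divides. Insertion of magnesium leads to chlorophyll, the light-harvesting pigment, and insertion of iron leads to heme, the cofactor of cytochromes and catalases. A side branch from uroporphyrinogen leads to siroheme and, in some organisms, to cobalamin. In *H. pluvialis* the pathway sits beside the synthesis of carotenoids, since the tail of chlorophyll and the carotenoids are made from the same isoprenoid precursor.

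The choice of sequences matched 17 GO terms, of which 11 name an enzyme activity and 6 a process. The process term chlorophyll biosynthetic process was listed for 45 of the 70 sequences (64.3%), and it was the only matching term for 21 of them. The term heme biosynthetic process was listed for 11 sequences (15.7%), chlorophyll catabolic process for 6, porphyrin biosynthetic process for 5 and regulation of chlorophyll biosynthetic process for 4. One sequence was listed with bacteriochlorophyll biosynthetic process. A total of 40 sequences had 1 matching term, 27 had 2 and 3 had 3. No term of the table contained the word tetrapyrrole.

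The sequences were sorted by the names of the matching terms alone. A term naming the chlorophyll branch was listed for 50 sequences (71.4%), the common steps for 15 (21.4%) and the heme branch for 11 (15.7%). Breakdown was named for 6 (8.57%) and the siroheme and cobalamin branch for 1 (1.43%). A sequence could fall in more than one of these. The term chlorophyll biosynthetic process counted for the chlorophyll branch even where the enzyme acts in a common step. The 2 glutamyl-tRNA reductase and 5 glutamate-1-semialdehyde aminomutase sequences were therefore counted there, and not under the common steps. The term porphyrin biosynthetic process does not tell the branches from each other. Of its 5 sequences, 3 also had an activity of a common step among the matching terms and are counted there, and 2 had no other matching term. Both chlorophyll and heme biosynthetic process were listed for 3 sequences. When the branches were instead read from enzyme activities alone, the common steps held 25 sequences, the chlorophyll branch 23 and the heme branch 4.

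An enzyme activity of the pathway was listed for 53 of the 70 sequences (75.7%), and none of them had the activity of more than 1 step. These 53 sequences covered 17 of the 30 steps that were looked for. Of these, 8 were common steps and 7 belonged to the chlorophyll branch, in which 8 steps had been looked for. The number of sequences per covered step ranged from 1 to 8 with a median of 3. Over all 940 activity terms of the table the median was 2 sequences. The 6 steps glutamyl-tRNA reductase, glutamate-1-semialdehyde aminomutase, hydroxymethylbilane synthase, chlorophyll synthase, geranylgeranyl reductase and ferrochelatase were not named by any of the words used for the choice. They were nevertheless reached through process terms, with 22 sequences in all, and no sequence with these activities lay outside the 70.

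**Figure D1:**
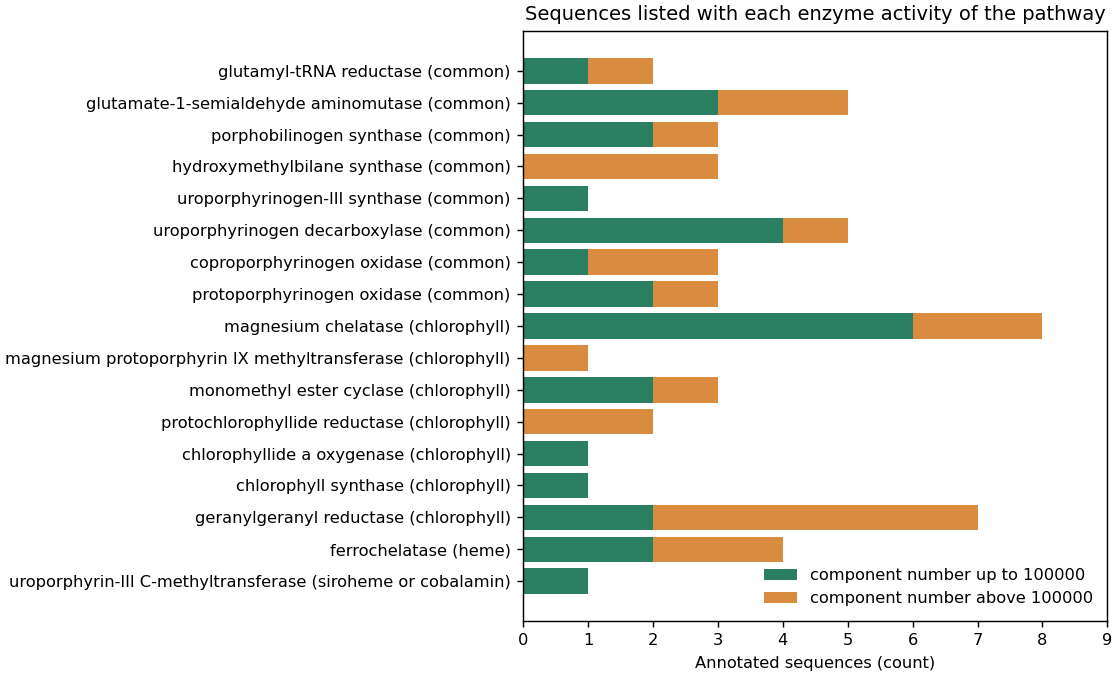
Number of annotated sequences (horizontal axis, count) listed with the enzyme activity of each step (vertical axis, with its branch in brackets), in pathway order. Green bars count sequences with a Trinity component number up to 100000 and orange bars those above. Magnesium chelatase had the most sequences (8), and 5 of the 17 steps had 1.

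The entry to the pathway was covered by both enzymes that turn charged glutamate into aminolevulinic acid. Glutamyl-tRNA reductase, which commits glutamate to this route in plants, was listed for 2 sequences, comp62240_c0_seq1_15 and comp1458496_c0_seq1_3. They differed in 1 term each, with chloroplast as the location of the former and cytoplasm as that of the latter. Both also carried shikimate dehydrogenase activity, a term of another pathway, beside NADP or NADPH binding. Glutamate-1-semialdehyde aminomutase, which moves the amino group to form aminolevulinic acid, was listed for 5 sequences, all with pyridoxal phosphate binding, its cofactor, and with transaminase activity. Their locations differed. The sequences comp6062_c0_seq1_3, comp63336_c0_seq2_31 and comp63336_c1_seq1_5 had the same 5 terms with chloroplast, comp1363976_c0_seq1_3 had cytoplasm in its place, and comp1006273_c0_seq1_1 had chloroplast stroma, chloroplast envelope and apoplast. No term named aminolevulinate synthase, the enzyme by which animals and fungi make the same compound from glycine. The enzyme that charges transfer RNA with glutamate was listed for 11 sequences, all placed in cytoplasm or cytosol, and 0 of them were among the 70.

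The middle of the common series was covered at every step looked for, apart from the oxygen-independent form of coproporphyrinogen oxidation. Porphobilinogen synthase, which joins aminolevulinic acid into a pyrrole, was listed for comp6064_c0_seq1_3, comp59651_c1_seq1_30 and comp761936_c0_seq1_1. These 3 came from different components and had identical terms, namely chloroplast, metal ion binding and chlorophyll biosynthetic process beside the activity itself. Hydroxymethylbilane synthase, which links pyrroles into a chain, was also listed for 3 sequences. The first, comp1013704_c0_seq1_5, carried chlorophyll biosynthetic process with chloroplast stroma, chloroplast envelope, apoplast and defense response to bacterium. The others, comp1196787_c0_seq1_4 and comp1378557_c0_seq1_3, listed only the activity and porphyrin biosynthetic process, and with 2 terms each they were the least annotated of the 70. Uroporphyrinogen-III synthase, which closes the ring, was listed once, for comp58498_c0_seq57_34, with chloroplast and chlorophyll biosynthetic process.

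Uroporphyrinogen decarboxylase, the first enzyme of the common series past the branch to siroheme, was listed for 5 sequences that fell into separate annotations. In comp58915_c0_seq1_10 and comp60461_c0_seq1_9 the activity stood with chlorophyll biosynthetic process and with a chloroplast location, which was stroma and envelope in the former. In comp37743_c0_seq1_1, comp62164_c1_seq1_6 and comp603390_c0_seq1_7 it stood with porphyrin biosynthetic process and cytoplasm, and these 3 had the same 3 terms. Coproporphyrinogen oxidase was listed for comp59605_c1_seq1_15, comp866738_c0_seq1_12 and comp1161545_c0_seq1_3, all with protein homodimerization activity and a plastid location. All 3 carried heme biosynthetic process and 0 carried chlorophyll biosynthetic process, although the step precedes the division of the route. Protoporphyrinogen oxidase, which yields protoporphyrin IX, was listed for comp63351_c1_seq2_37, comp63351_c1_seq3_37 and comp1029742_c0_seq1_1. These had identical terms, with chloroplast and with both chlorophyll and heme biosynthetic process. They were the 3 sequences that named both end products.

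Magnesium chelatase, the ATP-driven enzyme of several subunits that inserts magnesium, was listed for 8 sequences. This was the most of the 17 covered steps when counted by sequence. A count of 8 or more sequences was found for 181 of the 940 activity terms (19.3%). All 8 carried ATP binding, nucleoside-triphosphatase activity, photosynthesis and chlorophyll biosynthetic process, and the terms do not tell its subunits apart. Of these sequences 4 (comp62847_c0_seq2_39, comp62847_c0_seq6_38, comp62847_c0_seq8_21 and comp62847_c0_seq9_40) were sequences of a single component with identical terms and the location chloroplast. The sequences comp57797_c0_seq1_28, comp60700_c0_seq2_9 and comp406878_c0_seq1_3 had chloroplast stroma instead, and comp480391_c0_seq1_1 had no location. Counted once per component, the step had 5 entries, fewer than the 7 of geranylgeranyl reductase.

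The steps from magnesium protoporphyrin to chlorophyllide had between 1 and 3 sequences. The methyltransferase that acts on magnesium protoporphyrin IX was listed for comp1005882_c0_seq1_2, with photosynthesis and without a location. The cyclase that forms the additional ring of chlorophyll was listed for comp51000_c0_seq2_19, comp62708_c3_seq1_31 and comp704795_c0_seq1_3. The location was chloroplast thylakoid membrane in the first and chloroplast in the others, and the metal was given as a transition metal ion in comp51000_c0_seq2_19 and comp62708_c3_seq1_31 and as iron in comp704795_c0_seq1_3. Protochlorophyllide reductase, which in its light-dependent form needs light to act, was listed for comp1042482_c0_seq1_3 and comp1318181_c0_seq1_1. The latter added NADPH dehydrogenase activity, chloroplast envelope and chloroplast thylakoid membrane, and the former had chloroplast. No term named the 8-vinyl reductase of this branch.

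A further 4 sequences shared oxidoreductase activity acting on iron-sulfur proteins as donors with chlorophyll biosynthetic process, chloroplast and photosynthesis, dark reaction. They were comp28759_c0_seq1_32, comp53853_c0_seq7_6, comp53853_c0_seq9_6 and comp66816_c0_seq1_4. The table listed this activity and the dark reaction term for these 4 sequences and for no others. The last of them also carried ATP binding, metal ion binding and a binding term for a cluster of 4 iron and 4 sulfur atoms. Many algae and cyanobacteria have, beside the light-dependent enzyme, a light-independent protochlorophyllide reductase that takes electrons from an iron-sulfur protein. None of the 4 was listed with a term that names protochlorophyllide, so they were not counted under that step.

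The end of the chlorophyll branch was covered at 3 steps. Chlorophyllide a oxygenase, which converts chlorophyll a precursors to the b form, was listed for comp54414_c0_seq1_38 with iron ion binding, a binding term for a cluster of 2 iron and 2 sulfur atoms, chloroplast inner membrane and chloroplast thylakoid membrane. Chlorophyll synthase, the prenyltransferase that attaches the tail, was listed for comp60156_c0_seq2_11 in the chloroplast membrane. Its process term was bacteriochlorophyll biosynthetic process, so it lacked chlorophyll biosynthetic process, unlike the other sequences of this branch with an enzyme activity. Geranylgeranyl reductase, which saturates the isoprenoid tail, was listed for 7 sequences from 7 components in 3 patterns of terms. The sequences comp61455_c2_seq2_16, comp818879_c0_seq1_4 and comp906293_c0_seq1_5 had 9 terms each, among them phytyl diphosphate and vitamin E biosynthetic process. In comp61455_c0_seq1_13 and comp818840_c0_seq1_5 the activity stood with protein binding, chloroplast envelope and chloroplast thylakoid membrane. In comp900824_c0_seq1_1 and comp1000008_c0_seq1_2 no location was given.

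The heme branch was covered by ferrochelatase, which inserts iron into protoporphyrin IX, in 4 sequences. All 4 carried heme biosynthetic process and a plastid location. In comp61070_c0_seq1_14 and comp781155_c0_seq1_2 the location was chloroplast, and in comp562141_c0_seq1_5 it was the chloroplast membrane and the chloroplast thylakoid membrane. The sequence comp16547_c0_seq1_8 had these membrane terms, mitochondrion and response to oxidative stress, and it was the only one of the 53 with a step to list a mitochondrial location. One sequence with heme biosynthetic process had no enzyme activity of the pathway. This was comp65105_c3_seq1_6, with 27 terms the most annotated of the 70. It listed iron chaperone activity, mitochondrial matrix, cytosol and regulation of ferrochelatase activity, together with animal terms such as adult walking behavior and proprioception. Terms of later heme steps lay outside the 70, with 1 sequence for protoheme IX farnesyltransferase (comp1375494_c0_seq1_3), which makes heme O for the respiratory chain, and 1 for a dihydrobiliverdin ferredoxin oxidoreductase (comp1320148_c0_seq1_1). No term named heme oxygenase.

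The siroheme and cobalamin branch was represented by comp61269_c0_seq13_4, with uroporphyrin-III C-methyltransferase activity, cobalamin biosynthetic process and oxidation reduction. It was the only one of the 70 with no matching process term. Of the 3 sequences of the table with cobalamin biosynthetic process it was the only one among the 70. No term named precorrin, siroheme or sirohydrochlorin.

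Breakdown of chlorophyll was named in 6 sequences, comp62597_c0_seq5_11, comp62597_c0_seq10_11, comp62597_c0_seq12_11, comp62597_c0_seq14_11, comp62597_c0_seq18_11 and comp62597_c0_seq26_11. They came from 1 component and had the same 6 terms, so that the count per component was 1. Beside chlorophyll catabolic process these were leucine catabolic process, electron transport chain, electron carrier activity, transport and mitochondrial matrix. None of the terms was an enzyme activity on chlorophyll. The 4 enzymes of chlorophyll breakdown that were looked for, namely chlorophyll b reductase, chlorophyllase, pheophorbide a oxygenase and red chlorophyll catabolite reductase, were named by 0 terms of the table. The table held 3 further sequences with leucine catabolic process, which were not listed with chlorophyll catabolic process.

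Regulation of chlorophyll biosynthetic process was listed for 4 sequences with other roles. The sequences comp58891_c0_seq2_51, comp58891_c0_seq3_52 and comp63888_c0_seq1_16 had the same 15 terms, which described a membrane transporter driven by ATP, with iron ion transport, cellular iron ion homeostasis, chloroplast organization and both chloroplast envelope and mitochondrial inner membrane. They also listed root development and pollen development, which are land plant terms. The sequence comp62084_c0_seq1_9 was listed as a nuclear response regulator with transcription factor activity, cytokinin mediated signaling and shoot development. The remaining 2 sequences without a step, comp807866_c0_seq1_5 and comp1106344_c0_seq1_8, carried both chlorophyll and carotenoid biosynthetic process. The former was listed with a cyclodiphosphate synthase activity of the plastid route to isoprenoids and the latter with the prenyl transfer activity that forms geranylgeranyl diphosphate. They were 2 of the 21 sequences of the table with carotenoid biosynthetic process, and 0 of the enzymes from magnesium chelatase onwards carried that term.

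The locations, which were not used in choosing the sequences, differed between the process terms. A plastid location was listed for 50 of the 70 sequences (71.4%) and for 10.9% of all annotated sequences. It was listed for 39 of the 45 sequences with chlorophyll biosynthetic process and for 10 of the 11 with heme biosynthetic process. It was listed for 0 of the 5 with porphyrin biosynthetic process, of which 3 had cytoplasm and 2 no location. Of the 45 sequences with chlorophyll biosynthetic process, 19 had a component number above 100000, and these included all 6 without a plastid location. Among all 70, sequences without a plastid location lay on both sides of that number. A plastid location was missing for 9 of the 26 sequences above it and for 11 of the 44 up to it. Of these 11, 6 were the sequences of the single breakdown component, so the counts by sequence hold repeats. Within the plastid, chloroplast with no part named was most frequent (30 sequences), followed by chloroplast envelope (9), chloroplast stroma (8) and chloroplast thylakoid membrane (7). Mitochondrial locations were listed for 11 sequences (15.7%, compared with 11.3% of all), and 6 of these were the sequences of the single breakdown component. Cytoplasm or cytosol was listed for 6 (8.57%, compared with 23.5%) and nucleus for 1 (1.43%, compared with 13.5%). Process terms and locations come from the same annotation of a sequence by similarity, so they are not independent of each other, and these shares were not tested.

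**Figure D2:**
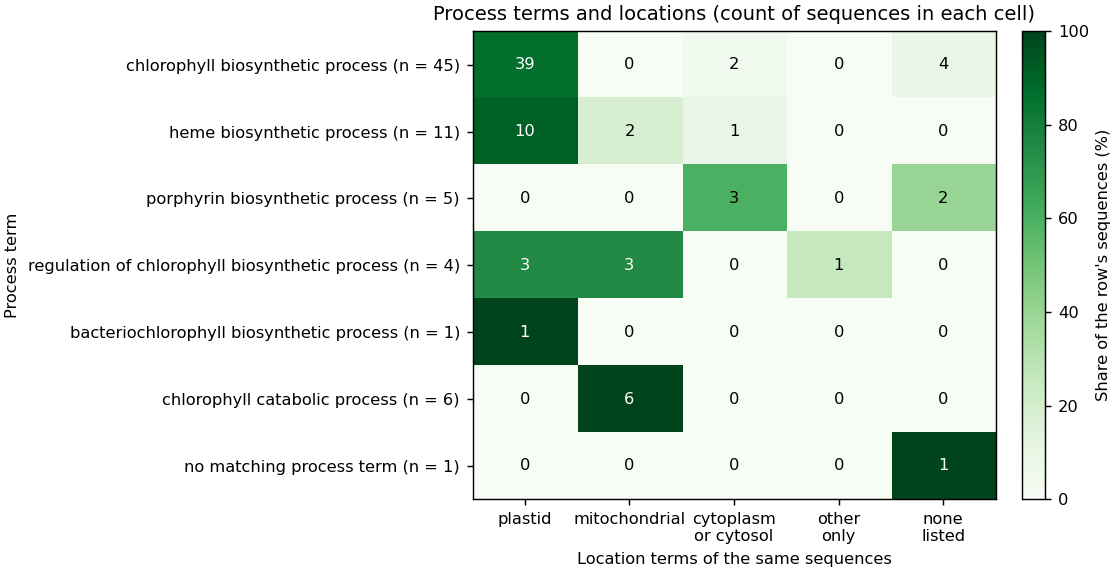
Number of the 70 sequences with each matching process term (rows) and each kind of location (columns), with the shade giving the share of the row in percent. A sequence may stand in several cells. Chlorophyll biosynthetic process had a plastid location in 39 of 45 sequences, and porphyrin biosynthetic process in 0 of 5.

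Among the other terms that the choice did not use, photosynthesis was listed for 22 of the 70 sequences (31.4%) and for 1.35% of all sequences, so that 23.9% of the 92 sequences with that term belonged to this pathway. All 22 carried chlorophyll biosynthetic process, and 0 of the 11 sequences with heme biosynthetic process carried photosynthesis. Among the steps, photosynthesis stood at 5, all of them in the chlorophyll branch. Oxidation reduction was listed for 26 sequences (37.1%, compared with 9.59% of all), and 22 of these had an enzyme activity, spread over 8 steps. ATP binding was listed for 12 (17.1%, compared with 28.1%), of which 8 were magnesium chelatase sequences. Function terms naming iron, an iron-sulfur cluster or iron-sulfur proteins as donors were listed for 7 (10%, compared with 3.05%). Process terms such as iron ion transport were not counted there. Heme binding (68 sequences in the table, 0.998% of all) and chlorophyll binding (50 sequences, 0.734%) were listed for 0 of the 70, where terms this rare overall would be few in a set of this size. Terms for JA or SA (0.22% of all sequences), for a light response (0.352%) and for a cold response (0.308%) were listed for 0 of the 70, and a response to oxidative stress (0.602%) was listed for 1. These counts are too small to be read against the shares over all sequences.

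**Figure D3:**
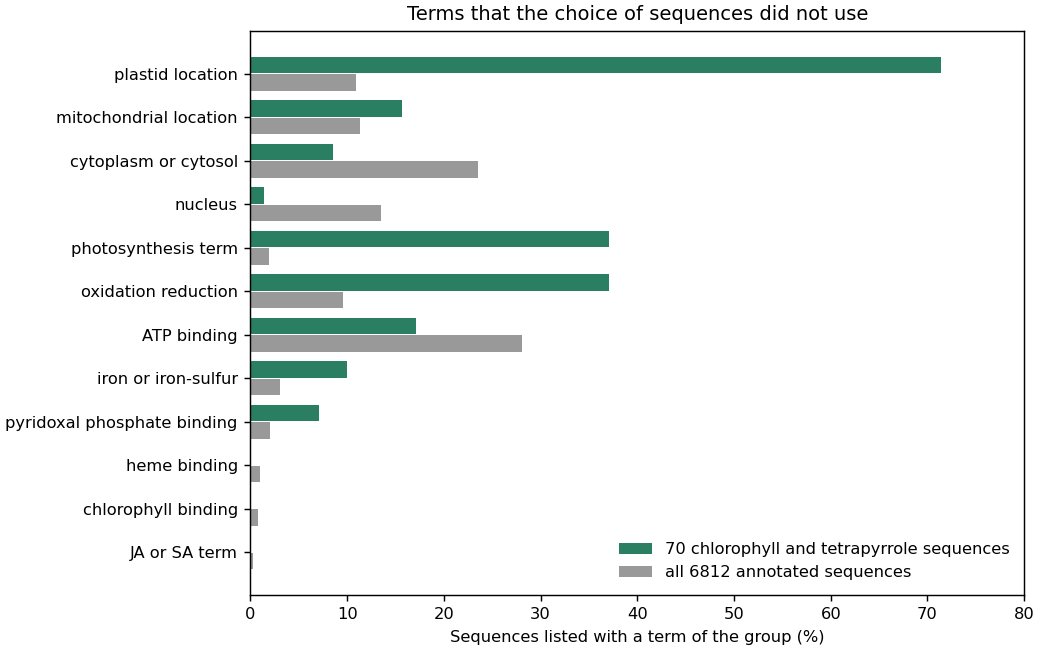
Share of sequences (horizontal axis, percent) listed with terms of each group (vertical axis) among the 70 chlorophyll and tetrapyrrole sequences (green) and among all 6812 annotated sequences (grey). Plastid locations stood at 71.4% and 10.9%, terms whose names begin with photosynthesis at 37.1% and 1.92%, and heme and chlorophyll binding at 0 among the 70.

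The number of terms per sequence ranged from 2 to 27 with a median of 6 (quartiles 5 and 6), where the median over all sequences was 5. Terms of all 3 domains of GO were listed for 63 of them (90%), compared with 74.5% of all. The choice itself required a process or function term, and 69 of the 70 had a matching process term. The difference between these shares is thus partly set by the choice. Together the 70 used 113 distinct terms, and 23 of the 96 terms not used for the choice were listed for no other sequence of the table. Some of the 23, such as proprioception and iron chaperone activity, were listed for a single sequence. Others were listed for several, such as geranylgeranyl reductase activity for 7. Terms of a single sequence were frequent in the whole table, with 314 of the 940 activity terms. How many terms are confined to other sets of this size was not counted, so the 23 are not read as a trait particular to the 70. Many annotations were repeated. The 70 sequences had 41 distinct sets of terms, and 15 of the sets were shared by 2 or more sequences, 44 in all. In 13 of the 15 the sharing sequences had different component numbers. The 3 porphobilinogen synthase sequences and the 3 protoporphyrinogen oxidase sequences each shared a single set, whereas the 3 cyclase sequences had 3. Identical terms do not show identical sequences, and the nucleotide sequences are not used here. How often sets of terms are shared over all annotated sequences was not counted.

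The identifiers placed the 70 sequences in 59 Trinity components, which are clusters of contigs assembled from overlapping reads. A component number above 100000 was found for 26 sequences (37.1%), compared with 50.3% of all annotated sequences. Counted by component, the shares were 44.1% and 55.6%. The 24 sequences above this number that had an enzyme activity of a step were 45.3% of the 53. Hydroxymethylbilane synthase, magnesium protoporphyrin IX methyltransferase and protochlorophyllide reductase were found only above it, with 3, 1 and 2 sequences. Uroporphyrinogen-III synthase, chlorophyllide a oxygenase, chlorophyll synthase and uroporphyrin-III C-methyltransferase were found only below, with 1 sequence each, and 10 steps were found on both sides. Geranylgeranyl reductase had 5 of its 7 sequences above. The last number of the identifier, taken as the count of the reading frame within its contig, had a median of 3 above and 12 below. It reached 12 above and 52 below. Over all annotated sequences the medians were 3 and 13, and the number reached 41 above and 197 below. Contig lengths are not used here, and their part in which steps lay above component number 100000 was not tested.

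**Figure D4:**
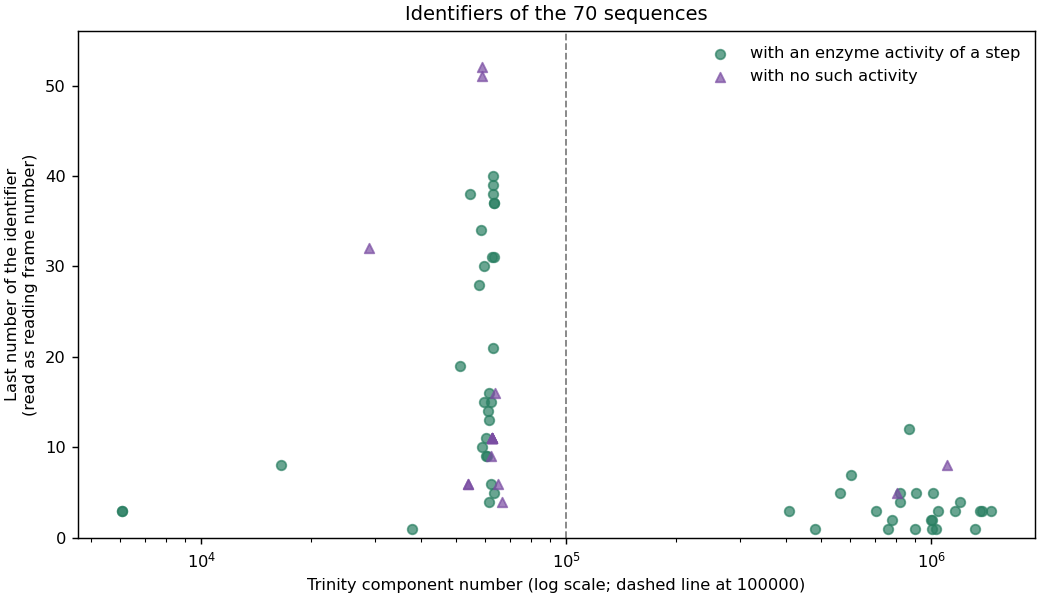
Trinity component number (horizontal axis, log scale) and last number of the identifier (vertical axis, read as the reading frame number) of each of the 70 sequences. Green circles are the 53 sequences with an enzyme activity of a step and violet triangles the other 17, and the dashed line marks component number 100000. The 26 sequences to the right of the line had last numbers of 1 to 12, and those to the left reached 52.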

How the data were processed

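The authors filtered the paired-end reads of the 7 libraries and built 1 assembly with Trinity. Reading frames came from GetORF, protein matches from Blastp and GO terms from GoPipe. The deposited table is text in 4 columns (sequence identifier, GO identifier, term name, domain letter) and holds 39529 pairs of a sequence and a term. None of its identifiers matched the 30548 genes of the reference table for *H. lacustris*, so no positions or base sequences are given.

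Identifiers whose term names contained one of 11 word patterns were counted, and a term counted only where listed itself. A component was the identifier without its sequence and reading frame numbers. Steps were matched by the exact name of the activity term, and those without a sequence also by words in any term. Members and lists were chosen with earlier results of these data known, including the division at component number 100000. The naming rule took the identifiers of steps with at most 4 sequences, the 3 with the most terms in larger steps, sequences sharing a component, and the 15 companion terms with the most members. Other identifiers were named after their terms had been seen. No test was run, since each condition has 1 library and sequences of an assembly are not replicates. The choice of sequences by words and the counts of lines and components were tested on simulated data. The counts of steps, branches, locations and sets of terms were not. Python 3.11.15 and Matplotlib 3.10.9 were used.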

Additional observations from a re-analysis of the deposited data

How the results depend on the processing

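Of 67 values under the alternatives, 55 stayed within 1.5 times the reported value and 12 moved. Of the 33 values for the main results, 22 stayed and 11 moved, and of the 34 for single steps, 33 stayed and 1 moved. Some of the 67 could not move. Counting once per component cannot change the number of covered steps, nor a step with 1 sequence. None of the 67 rests on a test. The 70 sequences became 191 with wider words, because these add heme binding and chlorophyll binding, 31 with function terms only, and 44 with component numbers up to 100000. The other 5 alternatives gave between 59 (1 count per component) and 69 (process terms only). From enzyme activities alone the common steps moved from 15 to 25, the chlorophyll branch from 50 to 23, the heme branch from 11 to 4 and breakdown from 6 to 0, so that the chlorophyll branch no longer held more sequences than the common steps. With 1 count per component, breakdown moved to 1 and magnesium chelatase from 8 to 5, and the other 16 steps stayed within 1.5 times. The 17 covered steps became 20 when process terms and sequences outside the 70 were admitted. Among sequences with a matching function term, ATP binding moved from 17.1% to 25.8% and mitochondrial locations from 15.7% to 0%, and with 1 count per component mitochondrial locations moved to 8.47%, so that their share went from above to below the 11.3% of all sequences (counted by sequence). Shares of plastid locations were 80.6% and 74.6% under these alternatives. No paired analysis was possible because the table pools the libraries. A step with no term may be missing from the annotation, from the assembly or from the RNA, and these cannot be told apart here.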

Other observations

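Sequences outside the 70 that share a component number with one of them were few. Of the 9 component numbers that held a member and at least 1 more annotated sequence, 7 held members only. The component numbers of a porphobilinogen synthase sequence (comp59651) and of a cyclase sequence (comp62708) also held 1 and 2 sequences outside the 70, from other parts of the component number.

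Steps differed in how alike their sequences were annotated. The share of terms held in common by a pair of sequences, out of all terms of the pair, was 1 for every pair of porphobilinogen synthase and of protoporphyrinogen oxidase sequences. Its median was 0.833 over the 28 pairs of magnesium chelatase, 0.556 over the 21 pairs of geranylgeranyl reductase, 0.2 over the 10 pairs of uroporphyrinogen decarboxylase and 0.143 over the 3 pairs of hydroxymethylbilane synthase. In uroporphyrinogen decarboxylase and hydroxymethylbilane synthase the low values came from sequences annotated with chlorophyll biosynthetic process in the plastid beside others annotated with porphyrin biosynthetic process and no plastid location.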
